A study of Mus musculus with 8 samples.

Results

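The adipokines studied here are hormones released by fat cells, described here with their receptors in the heart. The group holds 10 of the 30153 genes in the deposited table, chosen by name: the ligands Adipoq (adiponectin), Retn (resistin), Lep (leptin), Rarres2 (chemerin) and Nampt (also known as visfatin), and the receptors Adipor1, Adipor2, Cdh13, Lepr and Cmklr1. All 10 were found by symbol. Of the 8 heart libraries, 4 came from aged Haplotype-II mice on a western diet, a fatty and sugary feed. The other 4, called control here, came from Haplotype-II mice labelled only as aged. All mice were of strain C57/BL6 and, by the series title, overexpress the human angiotensin receptor. The labels do not give the transgene promoter, the exact age, the sex or how long the diet lasted. They do not state that each library comes from its own mouse, so the tests measure how much these libraries vary.

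Adiponectin circulates in large amounts and acts through the membrane receptors AdipoR1 and AdipoR2, which raise the activity of AMP-activated protein kinase and of PPAR alpha in muscle and liver. Cdh13 encodes T-cadherin, a cadherin anchored by a lipid that holds adiponectin on endothelium and heart muscle. Leptin signals through Lepr and the JAK2 and STAT3 proteins, mainly in the hypothalamus. Chemerin is cut into an active form by proteases and attracts macrophages and other cells that carry Cmklr1. Nampt is the rate-limiting enzyme of NAD salvage in most tissues and is also found outside cells, while resistin is made by fat cells in mice.

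Promoters of the group ranged widely in CpG content, from Adipoq and Retn at the low end to Adipor2 at the high end. Of the 10 genes, 8 had an entry among the RefSeq promoters of GRCm38.p6, each reaching from 250 bases before to 50 bases after the start; Cdh13 and Rarres2 had none. The sequences below are those of the fat-cell hormones and of Adipor2, 5′ to 3′ on the gene's strand, with every CpG dinucleotide in capitals.
Adipoq (chr16:23146286-23146585, plus strand): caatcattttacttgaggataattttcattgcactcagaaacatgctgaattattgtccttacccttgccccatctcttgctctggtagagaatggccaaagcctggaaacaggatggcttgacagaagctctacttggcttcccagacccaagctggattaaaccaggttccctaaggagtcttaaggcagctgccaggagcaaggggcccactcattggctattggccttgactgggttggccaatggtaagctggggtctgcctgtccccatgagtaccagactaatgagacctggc
Retn (chr8:3655520-3655819, plus strand): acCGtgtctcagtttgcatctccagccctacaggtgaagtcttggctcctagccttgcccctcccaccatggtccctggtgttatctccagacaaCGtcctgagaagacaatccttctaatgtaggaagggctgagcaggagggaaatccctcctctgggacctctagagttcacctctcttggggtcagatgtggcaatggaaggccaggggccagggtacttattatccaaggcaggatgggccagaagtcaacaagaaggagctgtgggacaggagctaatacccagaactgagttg
Lep (chr6:29059971-29060270, plus strand): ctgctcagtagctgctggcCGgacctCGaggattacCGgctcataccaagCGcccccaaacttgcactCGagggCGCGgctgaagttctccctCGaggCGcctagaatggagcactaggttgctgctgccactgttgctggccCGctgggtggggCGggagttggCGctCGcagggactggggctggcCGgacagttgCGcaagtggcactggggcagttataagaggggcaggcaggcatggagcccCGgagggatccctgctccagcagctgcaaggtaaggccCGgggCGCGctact
Adipor2 (chr6:119388685-119388984, minus strand): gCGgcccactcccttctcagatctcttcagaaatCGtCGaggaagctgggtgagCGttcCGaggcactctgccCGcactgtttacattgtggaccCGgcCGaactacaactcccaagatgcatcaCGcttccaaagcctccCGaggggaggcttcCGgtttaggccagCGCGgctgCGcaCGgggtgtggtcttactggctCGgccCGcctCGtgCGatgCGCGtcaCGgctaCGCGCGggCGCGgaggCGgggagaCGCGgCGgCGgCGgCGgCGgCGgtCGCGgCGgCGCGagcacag
The Adipoq promoter held 0 CpG and the Retn promoter 2, against 41 in the Adipor2 promoter and 19 in the Lep promoter. The Adipor2 entry lies at a start inside the annotated gene, as does that of Cmklr1. The sequences at the annotated 5′ ends of these genes had no entry and were not examined. Of all 32851 promoters of this length, 5.43% held none. The ratio of observed to expected CpG was 1.16 for Adipor2, 0.765 and 0.912 for the entries of Adipor1, and 0.825 for Nampt, against a median of 0.384 over all promoters. It was 0.639 and 0.587 for the entries of Lepr, 0.590 for Lep and 0.410 for Cmklr1. Both strands of these promoters were searched for short motifs. A core of sites for C/EBP factors, which act in fat-cell differentiation, written TTNNGCAA, was found 55 bases before the start of Lep and 19 bases after a start of Lepr, and 10.8% of all promoters hold it. The GC box GGGCGG, bound by Sp1, was found in Adipor1, Lep, Lepr and Nampt, and 35.7% of all promoters hold it. The TATA box, searched only as TATAAA, had no exact match in these 8 genes, and 13.6% of all promoters hold one. Variants were not searched, and the Lep promoter printed above holds TATAAG.

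The receptors Cdh13, Adipor1, Adipor2 and Cmklr1 were at 3.004 TPM or more in every library, while Lepr, Adipoq, Retn and Lep were each below 1 TPM in at least 5 of 8 libraries. Levels are in TPM, transcripts per 1000000 transcripts, which are divided by transcript length and so can be compared between genes. Over the 8 libraries Cdh13 averaged 67.1 ± 7.64 TPM (SD, n = 8), Adipor1 58.4 ± 6.48 TPM, Nampt 36.4 ± 3.66 TPM and Adipor2 27.1 ± 3.95 TPM. Cdh13 was above Adipor1 in 7 of 8 libraries, and the ranges of these neighbours in the order overlapped. Nampt was above Adipor2 in 8 of 8 libraries, though their ranges overlapped. Next came Rarres2 at 11.2 ± 4.21 TPM, Cmklr1 at 5.20 ± 1.78 TPM and Lepr at 1.19 ± 0.767 TPM, each above the next in 8 of 8 libraries except for Lepr, which was above Adipoq in 7. Adipoq averaged 0.945 ± 1.89 TPM, Retn 0.280 ± 0.390 TPM and Lep 0.0568 ± 0.0953 TPM. Of the 10 genes, 6 reached 1 TPM in every library, namely Cdh13, Adipor1, Nampt, Adipor2, Rarres2 and Cmklr1. Only these 6 were tested in the main fit.

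**Figure D1:**
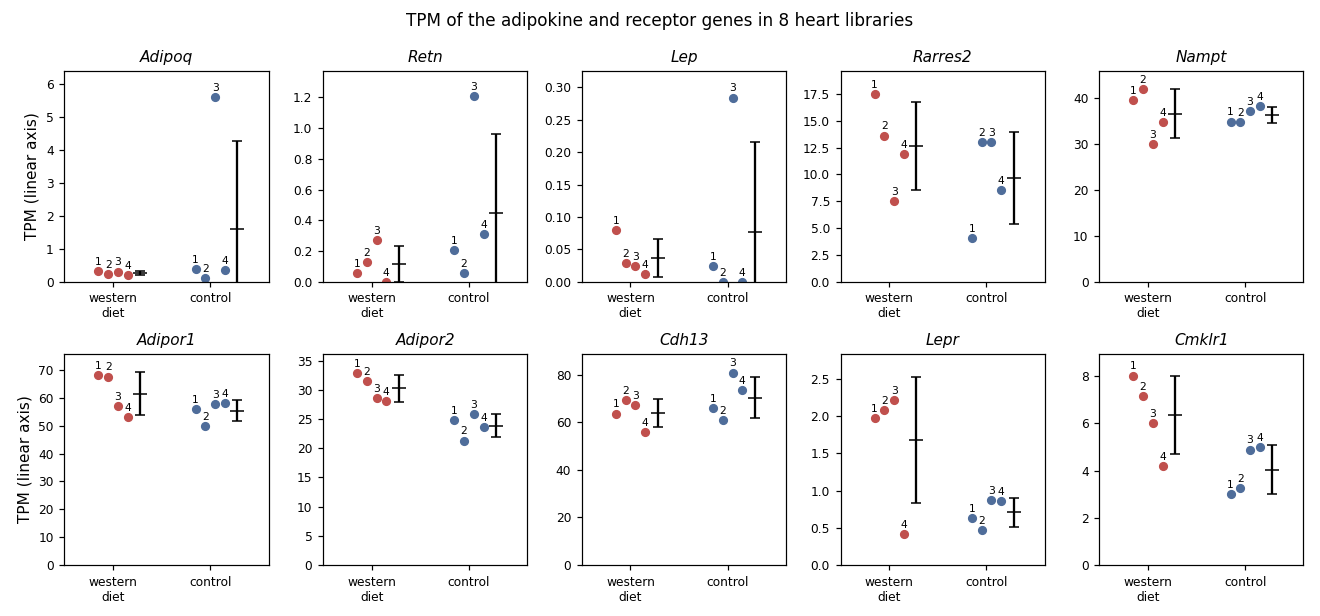
TPM of each of the 10 genes on a linear axis from 0, in western diet (red, left) and control (blue, right) libraries; numbers are replicates and the black marks are mean ± SD (n = 4), cut at 0 where the SD is larger than the mean. Adipor2 was at 28.1 to 32.9 TPM with western diet and at 21.3 to 25.8 TPM in control, and the 3 hormones Adipoq, Retn and Lep were highest in control replicate 3.

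Ventricular muscle markers were high in every library, with Myl2 at 13530 to 19809 TPM. TPM values keep no read depth, so the depth is unknown and no detection limit is given. Some libraries stood apart. Y-linked transcripts were present in western diet replicate 4 and in all 4 controls (Eif2s3y at 21.1 to 29.0 TPM) and near 0 in western diet replicates 1, 2 and 3, where Eif2s3y was at most 0.0231 TPM and the sum of 4 Y-linked genes at most 0.270 TPM. A fit with a term for Y-linked transcripts therefore rests, for the diet, on western diet replicate 4 alone, and missing the threshold in it says nothing of whether a gene differs. The summed TPM of 4 atrial muscle genes was 1565 in western diet replicate 2, 895 in control replicate 1 and 6176 in control replicate 3, while the remaining 5 ranged over 75.1 to 176. Kidney transcripts separated the whole groups, with sums of 9.53 to 79.3 TPM with western diet and of at most 0.744 TPM in control. Most of the sum was Kap, at 7.15 to 72.1 TPM with western diet and at most 0.685 TPM in control. Kap passed in limma (log2 fold change 3.83, SE 0.55, adjusted p = 0.0169). In bulk tissue, fewer cells of a type and less RNA per cell cannot be told apart.

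Of the 6 tested genes 0 passed an adjusted p of 0.05 in limma, where 0.301% of all 10969 genes tested did (0.228% higher and 0.0729% lower with western diet). An unadjusted p under 0.05 was found for 2, Adipor2 and Cmklr1, where 11.7% of all genes did. Western diet and control libraries did not overlap for 1 of the 6, Adipor2, which was higher with western diet; 6.60% of all genes were so separated, and 4.85% were higher. Means of log2(TPM + 1) were higher with western diet for 4 of the 6, and for 66.4% of all genes. The median log2 fold change was 0.24 over the 6 and 0.06 over all genes tested.

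Adiponectin, resistin and leptin transcripts were all highest in a single library. Adipoq (ENSMUSG00000022878, GRCm38 chromosome 16, 23146536 to 23158028) was at 0.334, 0.239, 0.311 and 0.214 TPM in western diet replicates 1 to 4. In control replicates 1 to 4 it was at 0.398, 0.105, 5.61 and 0.351 TPM. Control replicate 3 was 18.0 times the median of the other 7 libraries, and apart from it both groups covered about the same range. Without that library the control mean was 0.285 ± 0.158 TPM (SD, n = 3), against 0.275 ± 0.0574 TPM with western diet (n = 4). Retn (ENSMUSG00000012705, chromosome 8, 3655770 to 3660110) was at 0.0590, 0.127, 0.273 and 0 TPM with western diet and at 0.209, 0.0547, 1.21 and 0.309 TPM in control. Its highest library was again control replicate 3, at 9.51 times the median of the others. Lep (ENSMUSG00000059201, chromosome 6, 29060220 to 29073877) was at 0.0126 to 0.0799 TPM with western diet. In control it was at 0.284 TPM in replicate 3, at 0.0239 TPM in replicate 1 and listed at 0 in replicates 2 and 4. None of these hormones reached the level needed for the test.

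Of 15 white fat markers 8 and of 6 brown fat markers 3 were highest in control replicate 3, and the other 10 of these 21 were not. Car3, a carbonic anhydrase abundant in fat, was at 28.04 TPM there, and the other 7 libraries lay between 0.635 and 1.83 TPM. Cfd, which encodes the fat-cell protease adipsin, was at 11.1 TPM there and at most 2.38 TPM elsewhere. Cidec, a lipid droplet protein, was at 4.31 TPM there and at 0.0501 to 0.861 TPM elsewhere. Ucp1, the uncoupling protein of brown fat, was at 10.9 TPM there, at 1.68 TPM in western diet replicate 2 and at most 0.0842 TPM in the remaining 6. Plin1, the perilipin of fat cells, was at 0.704 TPM there and at most 0.114 TPM elsewhere, with 5 libraries listed at 0. Other list members were high in every library: Fabp4, a fatty acid binding protein also made by endothelium, was at 471 to 616 TPM, and Cidea at 23.2 to 32.4 TPM. The white fat markers Aqp7, at 10.9 to 15.6 TPM, and Mrap, at 6.64 to 10.6 TPM, were each highest in a western diet library. The 10 white fat markers that did not reach 1 TPM in every library, a subset chosen after the values were seen, summed to 3.49 to 4.76 TPM with western diet. In control they summed to 50.8 TPM in replicate 3 and to 1.68 to 4.97 TPM in the other replicates. Control replicate 3 also held the most atrial transcripts. All 6 liver markers were highest there too, with a sum of 16.7 TPM against 1.43 to 11.3 TPM in the other libraries. Adipoq was at 0.239 TPM in western diet replicate 2 and at 0.398 TPM in control replicate 1, the other libraries with atrial transcripts, and 0.398 TPM was the highest value outside control replicate 3. Lipe, the hormone-sensitive lipase of fat and muscle, had another pattern, with 19.9, 15.7, 12.2 and 7.42 TPM in western diet replicates 1 to 4 and 6.32 to 6.90 TPM in control (log2 fold change 0.88, SE 0.22, limma adjusted p = 0.140). Its groups did not overlap and control replicate 3 did not stand out, at 6.47 TPM. The part of fat, atrial or liver tissue in the Adipoq values was not tested.

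**Figure D2:**
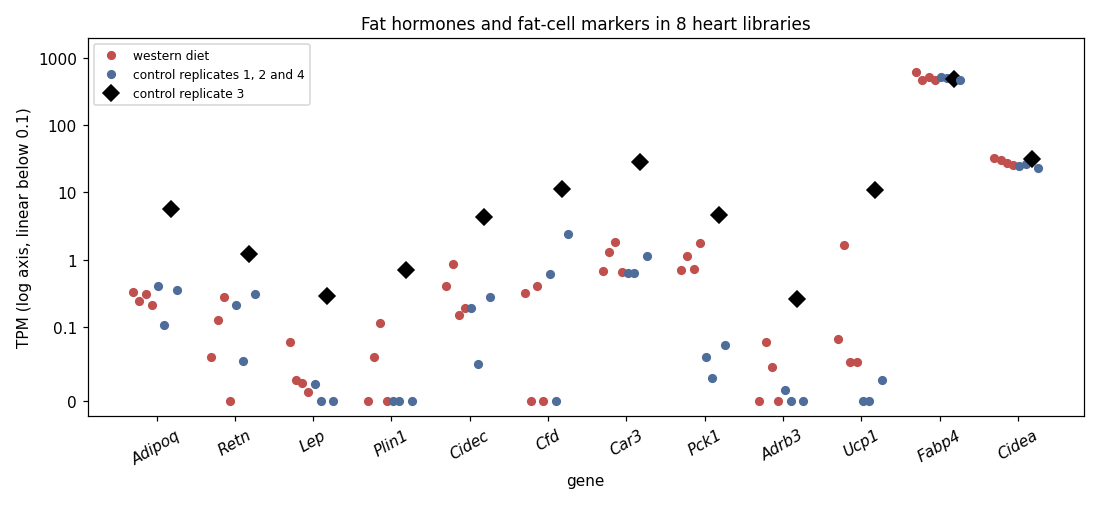
TPM of Adipoq, Retn, Lep and of 9 fat-cell markers in each library, on a log axis that is linear below 0.1; red points are western diet, blue points control replicates 1, 2 and 4, and black diamonds control replicate 3. Control replicate 3 was highest for the first 10 genes, while Fabp4 (471 to 616 TPM) and Cidea (23.2 to 32.4 TPM) were at like levels in all 8 libraries. Most of the markers shown were picked after their values were seen. Of the listed markers that were highest in another library, only Fabp4 and Cidea are shown. Of all markers listed, 8 of 15 for white fat and 3 of 6 for brown fat were highest in control replicate 3.

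The genes most like Adipoq over the 8 libraries, by Pearson correlation of log2(TPM + 1) among 11994 genes, were Tmem45b (r = 0.99), Hmga1b (r = 0.99) and Gm5776 (r = 0.99). All were highest in control replicate 3, at 1.37, 5.20 and 1.91 TPM, and each r rests on that library. Those most like Retn were Mks1 (r = 0.98), Fmod (r = 0.97) and Zfp58 (r = 0.97), with the same library highest. These values of r describe libraries that share a tissue and their groups.

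Adipor2 was the one receptor whose groups did not overlap. Adipor2 (ENSMUSG00000030168, chromosome 6, 119353150 to 119417704, minus strand) was at 32.9, 31.6, 28.6 and 28.1 TPM in western diet replicates 1 to 4, and at 24.9, 21.3, 25.8 and 23.6 TPM in control replicates 1 to 4. Each western diet library was above each control, by 1.27 times on average, with 30.3 ± 2.32 TPM against 23.9 ± 1.94 TPM (SD, n = 4 each). The log2 fold change was 0.33 (SE 0.09, limma adjusted p = 0.185), so it did not pass. Adjusted p was between 0.0853 and 0.751 under the alternative settings. With the Y-linked term, resting on western diet replicate 4, the log2 fold change was 0.23 (SE 0.14). Adipor1 (ENSMUSG00000026457, chromosome 1, 134415378 to 134433351) was at 68.3, 67.6, 57.1 and 53.0 TPM with western diet and at 56.0, 49.7, 57.8 and 58.0 TPM in control. Its groups overlapped, and the log2 fold change was 0.14 (SE 0.10, limma adjusted p = 0.635). With the Y-linked term it was -0.06 (SE 0.14), and with median-of-ratios scaling 0.06.

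The balance between the AdipoR genes, taken as the ratio of their TPM within each library, was looked at after the values were seen. Adipor1 was at 2.08, 2.14, 2.00 and 1.89 times the TPM of Adipor2 in western diet replicates 1 to 4, and at 2.25, 2.33, 2.24 and 2.46 times in control replicates 1 to 4. The ratio averaged 2.03 ± 0.109 with western diet and 2.32 ± 0.101 in control (SD, n = 4 each), and the groups did not overlap. The difference in log2 ratio was -0.20 (two-sided exact permutation p = 0.0286, the smallest that 70 assignments allow, not adjusted). Groups of 4 that do not overlap always give this p, so it adds nothing to the lack of overlap. How many other pairs of genes have ratios so separated was not counted. The difference lay between -0.23 and -0.16 when each library was left out in turn, where the smallest possible p is 0.0571. Western diet replicate 4, which has Y-linked transcripts like the controls, had the lowest ratio of all. The part of the diet or of the Y-linked split in the ratio was not tested.

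Cdh13 (ENSMUSG00000031841, chromosome 8, 118283733 to 119324921), the most abundant of the 10, was at 63.6, 69.3, 67.0 and 56.0 TPM with western diet and at 66.0, 60.8, 80.8 and 73.4 TPM in control. The groups overlapped, and the log2 fold change was -0.13 (SE 0.11, limma adjusted p = 0.684). It was -0.06 without control replicate 3 and -0.31 with the Y-linked term. Scaled by the median of ratios, its groups did not overlap and the log2 fold change was -0.21 (SE 0.06, limma adjusted p = 0.168, against 0.168 to 0.999 over all alternatives). The summed endothelial markers, cells that carry T-cadherin, were at 196 to 215 TPM with western diet and at 178 to 216 TPM in control. Summed ventricular muscle markers were at 33445 to 42913 TPM with western diet and at 41240 to 44987 TPM in control. Western diet replicate 4 was lowest both in that sum and in Cdh13. The part of either cell type in the Cdh13 values was not tested. The genes most like Cdh13 over the libraries were Supv3l1, Tdrd3 and Mitf (r = 0.97 each), and those most like Adipor2 were Capg, Slc40a1 and Arpin (r = 0.99 each). Those most like Adipor1 were Nomo1, Reep4 and Acvrl1 (r = 0.99 each).

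**Figure D3:**
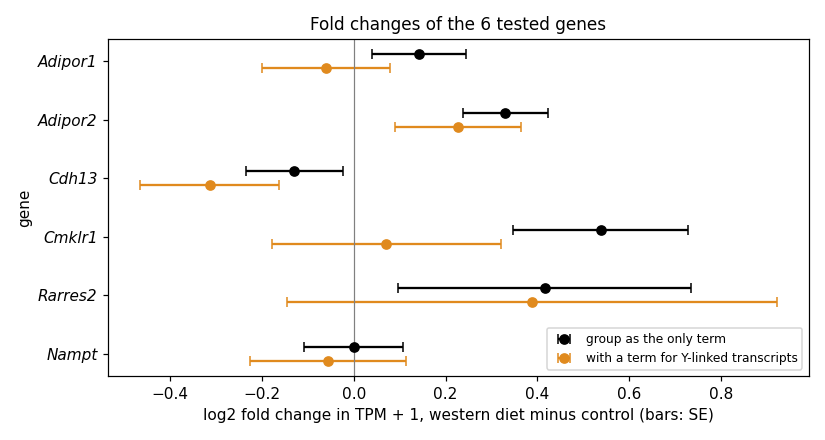
Log2 fold change in TPM + 1, western diet minus control, of the 6 tested genes with SE bars, with the group as the only term (black) and with a term for Y-linked transcripts (orange), where the diet estimate rests on western diet replicate 4 alone. Adipor2 stood at 0.33 and 0.23, Cmklr1 at 0.54 and 0.07, and Adipor1 at 0.14 and -0.06.

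Of 17 tested genes of adiponectin signalling and AMP-activated protein kinase, 0 passed in limma over all genes, 1 had an unadjusted p under 0.05, and 12 were higher with western diet (median log2 fold change 0.05). Over all genes tested, 11.7% had such a p, 66.4% were higher and 6.60% had groups that did not overlap. Of the 76 tested genes in all pathway lists, here and below, 13 had such a p, 58 were higher and 7 did not overlap. Acacb, the acetyl-CoA carboxylase of mitochondria that this kinase restrains, was at 53.3 ± 6.85 TPM with western diet and 44.1 ± 2.77 TPM in control (log2 fold change 0.26, limma adjusted p = 0.358), and the log2 fold change was 0.06 with the Y-linked term. Gstk1, also called DsbA-L and known to help assemble adiponectin in fat cells, was at 74.5 ± 12.04 TPM with western diet and 86.3 ± 2.94 TPM in control (log2 fold change -0.22, limma adjusted p = 0.459), and the log2 fold change was -0.43 with that term. Prkaa1, which encodes a catalytic subunit of the kinase, did not reach the test. It was at 1.11, 2.37 and 1.04 TPM in western diet replicates 1, 2 and 3, at 0.000306 TPM in replicate 4 and at most 0.000215 TPM in the controls, and such near-zero values can be a failed estimate. Of 4 tested relatives of the AdipoR genes in the PAQR family 0 passed, with 1 at an unadjusted p under 0.05, and Paqr9 was at 9.16 ± 1.36 TPM against 7.38 ± 0.672 TPM in control (limma adjusted p = 0.417). The log2 fold change of Paqr9 was 0.27, and -0.0167 with the Y-linked term. Paqr4 was at 10.4 ± 1.03 TPM against 9.39 ± 0.648 TPM in control (limma adjusted p = 0.662), and its log2 fold change was 0.13, and 0.29 with that term. Of 7 tested adiponectin paralogs 0 passed, with 1 at an unadjusted p under 0.05. C1qtnf5 was at 3.08 ± 0.437 TPM against 2.33 ± 0.183 TPM in control (limma adjusted p = 0.344), and its groups did not overlap. C1qtnf1 was at 6.56 ± 1.01 TPM against 5.37 ± 0.590 TPM in control (limma adjusted p = 0.483), with a log2 fold change of 0.24, and of -0.0321 with the Y-linked term.

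The leptin receptor divided the libraries along the presence of Y-linked transcripts. Lepr (ENSMUSG00000057722, chromosome 4, 101717404 to 101815352) was at 1.98, 2.08 and 2.22 TPM in western diet replicates 1, 2 and 3 and at 0.413 TPM in western diet replicate 4. In control replicates 1 to 4 it was at 0.629, 0.473, 0.869 and 0.854 TPM. Western diet replicate 4 was thus the lowest of all 8 libraries, and the other western diet libraries were the highest. Only 3 libraries reached 1 TPM, so Lepr was not tested in the main fit. The difference in mean log2(TPM + 1) was 0.58 between western diet and control with no filter (SE 0.26, limma adjusted p = 0.581). Without western diet replicate 4 it was 0.86 (SE 0.11, limma adjusted p = 0.0526, against 0.0526 to 0.885 over all alternatives). With a term for Y-linked transcripts it was -0.27 (SE 0.15), an estimate that rests on western diet replicate 4 alone. The diet and the presence of Y-linked transcripts cannot be told apart in the other libraries.

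All 3 genes most like Lepr lie on the X chromosome: Slc25a5 (r = 0.99), Eif2s3x (r = 0.99) and Kdm6a (r = 0.98). Each r rests on the gap between western diet replicates 1, 2 and 3 and the other libraries. Any gene with such a gap has a high r, and the part of sex-chromosome genes in the Lepr values was not tested. Eif2s3x and Kdm6a are known to escape X inactivation in mice. Eif2s3x was at 51.3, 55.8 and 53.9 TPM in western diet replicates 1, 2 and 3 and at 26.3 TPM in replicate 4, against 24.1 to 31.5 TPM in control. Kdm6a was at 1.75, 2.04 and 2.05 TPM in western diet replicates 1, 2 and 3 and at 0.775 TPM in replicate 4, against 0.850 to 1.17 TPM in control. Leprot, which lies near Lepr and encodes a protein that limits the receptor at the cell surface, did not follow this split. The ratio of Leprot to Lepr was 9.29, 7.61 and 6.44 in western diet replicates 1, 2 and 3 and 33.3 in replicate 4, against 18.6 to 28.8 in control.

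**Figure D4:**
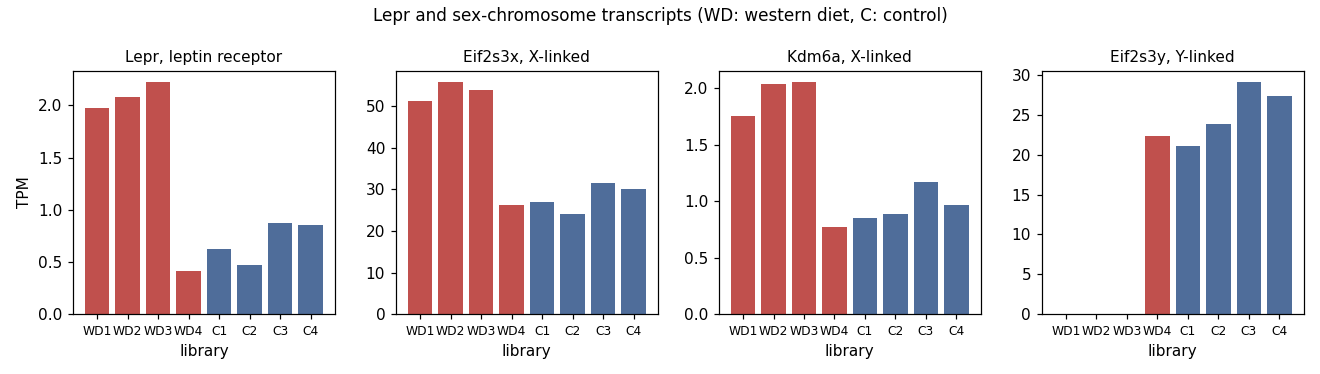
TPM of Lepr, the X-linked genes Eif2s3x and Kdm6a and the Y-linked gene Eif2s3y in each library (WD, western diet; C, control; bars start at 0). Western diet replicates 1, 2 and 3 were high for the first 3 genes (Lepr at 1.98 to 2.22 TPM) and lacked the last, while western diet replicate 4 (Lepr at 0.413 TPM) was placed with the controls.

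Of 13 tested genes of leptin signalling 0 passed, 2 had an unadjusted p under 0.05 and 12 were higher with western diet (median log2 fold change 0.11). Over all genes tested, 11.7% had such a p, 66.4% were higher and 6.60% had groups that did not overlap. Socs3, the feedback inhibitor induced by STAT3, was at 2.89, 2.72, 1.75 and 1.62 TPM with western diet and at 1.55, 1.14, 1.46 and 0.941 TPM in control (log2 fold change 0.50, SE 0.16, limma adjusted p = 0.230). Its groups did not overlap, though western diet replicate 4 and control replicate 1 were close, and the log2 fold change was 0.21 with the Y-linked term. Irs2, an adaptor of the insulin receptor, was at 3.99, 4.51, 1.11 and 2.01 TPM with western diet and at 1.29 to 1.603 TPM in control (limma adjusted p = 0.422). Western diet replicates 1 and 2 were the highest, and the log2 fold change was 0.57 with all libraries, 0.37 without western diet replicate 2 and 0.30 with the Y-linked term.

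Chemerin varied widely within both groups. Rarres2 (ENSMUSG00000009281, chromosome 6, 48569696 to 48572789, minus strand) was at 17.5, 13.6, 7.56 and 11.9 TPM with western diet and at 4.04, 12.99, 13.01 and 8.57 TPM in control. The ranges overlapped over most of their width, and the log2 fold change was 0.42 (SE 0.32, limma adjusted p = 0.662). The log2 fold change was 0.09 without control replicate 1, the lowest library, 0.25 without western diet replicate 1, the highest, and 0.13 without the libraries with atrial transcripts. Over its annotated length 1027 bases overlap Lrrc61 on the opposite strand, which averaged 5.23 TPM, and whether counting used the strand is not given in the sources used here. Rarres2 is also made by liver and mesothelium: 6 liver markers summed to 2.24 to 3.80 TPM with western diet and to 1.43, 11.3, 16.7 and 3.09 TPM in control replicates 1 to 4. The 7 mesothelial markers in the table summed to 3.28 to 7.53 TPM with western diet and to 2.44 to 5.86 TPM in control, and the part of either in the Rarres2 values was not tested. The genes most like Rarres2 were Cdk5rap2 (r = 0.93), Bcas3 (r = 0.91) and 4933434E20Rik (r = 0.91).

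The chemerin receptor was higher on average with western diet but did not pass. Cmklr1 (ENSMUSG00000042190, chromosome 5, 113612354 to 113650426, minus strand) was at 8.03, 7.16, 6.01 and 4.21 TPM with western diet and at 3.004, 3.27, 4.89 and 5.01 TPM in control. Western diet replicate 4 lay within the control range, and the other western diet libraries were above it. The ratio of means was 1.57, with 6.35 ± 1.65 TPM against 4.04 ± 1.05 TPM (SD, n = 4 each), and the log2 fold change was 0.54 (SE 0.19, limma adjusted p = 0.300). With the Y-linked term, resting on western diet replicate 4, it was 0.07 (SE 0.25). Without that library, when diet and Y-linked transcripts cannot be told apart, it was 0.69 (SE 0.17, limma adjusted p = 0.0982), where all alternatives gave an adjusted p of 0.0982 to 0.983. Summed markers of macrophages, cells that carry Cmklr1, were at 256, 180, 164 and 159 TPM in western diet replicates 1 to 4 and at 155 to 190 TPM in control, and 0 of the 8 macrophage markers passed in limma, with 1 at an unadjusted p under 0.05. That 1 was C1qa, where 11.7% of all genes tested had such a p. The part of macrophages in the Cmklr1 values was not tested. The genes most like Cmklr1 were Dusp18 (r = 0.99) and Mat2a (r = 0.98), with an unnamed gene whose values equal those of Mat2a.

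Of 4 tested genes among the other chemerin receptors and its proteases 0 passed. An unadjusted p under 0.05 was found for 1, where 11.7% of all genes tested had one. That gene was Ctss, the macrophage protease cathepsin S, at 20.6, 14.6, 14.1 and 14.2 TPM with western diet and at 10.5, 10.1, 13.6 and 12.9 TPM in control (log2 fold change 0.39, limma adjusted p = 0.303). Its groups did not overlap, as for 6.60% of all genes tested, and the log2 fold change was 0.26 with the Y-linked term. Ctsk, cathepsin K, was at 3.54 ± 0.166 TPM against 3.83 ± 0.435 TPM in control (log2 fold change -0.09, limma adjusted p = 0.789), and its log2 fold change was -0.03 without control replicate 3. Gpr1, another chemerin receptor, was at most 0.202 TPM with western diet and 0.168 TPM in control, and Elane, the neutrophil elastase that can cut chemerin, was listed at 0 in all 8 libraries.

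Nampt (ENSMUSG00000020572, chromosome 12, 32819545 to 32853349) was at 39.5, 41.9, 29.9 and 34.8 TPM with western diet and at 34.8, 34.8, 37.2 and 38.2 TPM in control. The control libraries lay within the western diet range, and the log2 fold change was -0.000334 (SE 0.11, limma adjusted p = 0.999). The genes most like it were Ptpdc1 (r = 0.98), Thoc3 (r = 0.98) and Pdss2 (r = 0.96). Of 18 tested genes of NAD synthesis and use 0 passed, 2 had an unadjusted p under 0.05 and 13 were higher with western diet (median log2 fold change 0.09). Over all genes tested, 11.7% had such a p and 66.4% were higher. Nnt, the mitochondrial transhydrogenase that makes NADPH, was at 62.9, 91.5, 59.2 and 39.7 TPM with western diet and at 37.2, 24.8, 34.1 and 42.8 TPM in control (log2 fold change 0.81, SE 0.23, limma adjusted p = 0.183). Western diet replicate 4 lay inside the control range, and without it the log2 fold change was 1.01 and passed (limma adjusted p = 0.0490, against 0.0490 to 0.922 over all alternatives). Diet and Y-linked transcripts cannot be told apart without that library, and with the Y-linked term, which rests on it, the log2 fold change of Nnt was 0.21 (SE 0.28, limma adjusted p = 0.922). Sirt4, a mitochondrial sirtuin that uses NAD, was at 7.46 ± 0.812 TPM against 9.67 ± 1.30 TPM in control (limma adjusted p = 0.293).

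Of 3 tested genes related to resistin 0 passed and 1 had an unadjusted p under 0.05. Over all genes tested, 0.301% passed, 11.7% had such a p, 66.4% were higher and 6.60% had groups that did not overlap. Tlr4, a Toll-like receptor reported to bind resistin, was at 3.54, 4.61, 3.48 and 3.69 TPM with western diet and at 2.61, 2.17, 3.20 and 3.05 TPM in control (limma adjusted p = 0.280), with no overlap. Cap1, reported as a receptor for human resistin, was at 18.2 ± 0.914 TPM against 15.7 ± 2.11 TPM in control (log2 fold change 0.21, limma adjusted p = 0.474), and its log2 fold change was 0.12 with the Y-linked term and 0.13 with median-of-ratios and quantile scaling. Of 10 tested genes of other adipokines and their receptors 0 passed, while 4 had an unadjusted p under 0.05 and 8 were higher with western diet (median log2 fold change 0.22). Angptl4, a secreted inhibitor of lipoprotein lipase, was at 5.40, 5.84, 15.5 and 6.94 TPM with western diet and at 3.32, 1.09, 2.06 and 1.93 TPM in control (log2 fold change 1.54, SE 0.29, limma adjusted p = 0.0630). Its groups did not overlap, and without western diet replicate 3 it passed at a log2 fold change of 1.23 (limma adjusted p = 0.0402, against 0.0402 to 0.424 over all alternatives). Lcn2, the iron-carrier-binding lipocalin 2, was at 4.61, 3.13, 2.94 and 3.32 TPM with western diet and at 1.92, 2.12, 1.47 and 1.40 TPM in control (log2 fold change 0.72, SE 0.14, limma adjusted p = 0.0652). Its groups did not overlap either, and it passed with library weights (adjusted p = 0.0370) and with mitochondria-free scaling (adjusted p = 0.0461), over a range of 0.0370 to 0.408. Markers of neutrophils, cells that make lipocalin 2, summed to 8.83 to 17.0 TPM with western diet and to 4.12 to 7.42 TPM in control, and their part was not tested. Of the 2 neutrophil markers tested 1 passed, S100a8, at 3.32, 3.39, 5.601 and 3.01 TPM with western diet and at 1.74, 1.47, 1.21 and 0.940 TPM in control (log2 fold change 1.03, SE 0.17, limma adjusted p = 0.0319). S100a9, which with S100a8 makes up most of the sum, was at 4.84 to 9.93 TPM with western diet and at 2.48 to 5.15 TPM in control (limma adjusted p = 0.135). The remaining neutrophil markers were each below 1 TPM in every library and were not tested. Csf3r was the highest of them, at 0.391 to 0.984 TPM with western diet and 0.256 to 0.490 TPM in control. Ly6g was listed at 0 in 7 of 8 libraries.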

How the data were processed

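Heart RNA of 8 libraries was measured, 4 per group by GEO's labels. One matrix of TPM per gene was deposited by the authors. Per the labels' protocols, polyadenylated RNA was pulled down before stranded Illumina library preparation, and kallisto, DESeq2 and the build GRCm38 are listed, without version or role, per the submitters' processing notes. Columns summed to between 941318 and 953448, and depth is unknown. Names and 1-based coordinates came from GENCODE vM21 on GRCm38, which named 29811 of 30153 identifiers. No transcript of another gene had at least 90% identity to a member over at least 50% of the shorter one (megablast, BLAST 2.17.0).

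The members and all gene lists were chosen with earlier results of these data known. The 10969 genes reaching 1 TPM in 4 or more libraries were put on the log2(TPM + 1) scale and tested two-sided in limma 3.58.1 (R 4.3.3), with the group as the only term, an intensity trend and Benjamini-Hochberg adjustment; the fit was tested on simulated data. Fold changes on this scale understate those of low genes. The promoter, list and figure steps used Python 3.11.15 with pandas 2.3.3 and matplotlib 3.10.9.

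Alternatives were a pseudocount of 0.1 or 0.5, dropping the filter or asking for a mean of 5 TPM, scaling by median of ratios, by quantiles or without mitochondrial genes, library weights, a Y-linked term (Eif2s3y at 1 TPM or more), those libraries alone, omitting libraries with Myl7 at 100 TPM or more (atrial transcripts), and leaving out each library in turn. Named were all members, list genes past the threshold or else the 2 of smallest p per pathway list, up to 4 markers per cell type, and the 3 genes most like each member. The markers are those of highest mean TPM. Outside this rule, and named after their values or positions were seen, are Car3, Cfd, Cidec, Plin1, Pck1, Adrb3, Ly6g, Prkaa1, Gpr1, Elane, Leprot and Lrrc61. Replicate numbers follow accession order and pair no libraries.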

Additional observations from a re-analysis of the deposited data

Results flagged for a closer look

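Within each group of 4 libraries, a value was marked where its gap to the nearest library took up most of the group's range (Dixon's criterion at 95%). For independent, normally distributed values the criterion marks about 1 in 20 groups. Of the 24 looked at 6 were marked. These groups share libraries, many values are near 0, and the fat marker subsets were chosen after the values were seen. The count can therefore not be read against that rate. Adipoq was at 5.61 TPM in control replicate 3, against 0.105 to 0.398 TPM in the other controls. Lep was at 0.284 TPM in the same library, against 0 to 0.0239 TPM in the others. White fat markers that did not reach 1 TPM everywhere summed to 50.8 TPM there, against 1.68 to 4.97 TPM. The brown fat markers chosen in the same way summed to 11.6 TPM there, of which Ucp1 held 10.9 TPM, against 0.197 to 0.281 TPM. Those brown fat markers summed to 2.10 TPM in western diet replicate 2, while western diet replicates 1, 3 and 4 had 0.260 to 0.468 TPM. Lepr was at 0.413 TPM in western diet replicate 4, against 1.98 to 2.22 TPM in western diet replicates 1, 2 and 3.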

How the results depend on the processing

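Under all 19 alternatives run, 0 members passed an adjusted p of 0.05. The count of members whose groups did not overlap was 1 in the main analysis, where 6.60% of all genes tested were so separated. It was 2 with median-of-ratios scaling (Adipor2 and Cdh13). In the libraries with Y-linked transcripts alone it was also 2, but western diet is then a single library. Leaving out each library in turn gave 1 to 2, with 2 without western diet replicate 4 (Adipor2 and Cmklr1). Fewer libraries separate more easily, though median-of-ratios scaling kept them all. The share of all genes was not taken in any of these settings, so 2 is not read as a gain. Of the pathway genes 0 passed in the main analysis, 1 with mitochondria-free scaling and 1 with library weights (Lcn2 in both), and 0 to 1 when each library was left out. Signs turned for Adipor1 (log2 fold change -0.0601 with the Y-linked term and in the libraries with Y-linked transcripts alone), Paqr9 (-0.0167 in both) and C1qtnf1 (-0.0321 in both). Nampt, whose main value is near 0, was at 0.0013 with mitochondria-free scaling and 0.0322 with library weights, and between -0.0683 and 0.0896 when each library was left out. The cause was not tested. Adipor2 kept its sign under all 19 alternatives (0.23 to 0.39), as did Cdh13, Rarres2 and Cmklr1. Because the groups of Adipor2 did not overlap, only the settings that rescale the libraries could have turned its sign. The median log2 fold change of all genes was 0.06 as deposited and -0.0066 with median-of-ratios scaling. Members below the filter were not tested in the main fit, and the adjusted p values given for Lepr come from fits with no filter. Without control replicate 3 the difference in mean log2(TPM + 1) of Adipoq was -0.0047, against -0.60 with all libraries. Without the libraries with atrial transcripts it was 0.07. No paired analysis was possible because the groups share no replicate numbers in the labels.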
